A study of Mus musculus with 9 samples.

Results

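The genes described here are glutathione and thioredoxin genes driven by the transcription factor NRF2 in mouse liver. They were chosen by name (Slc7a11, Gclc, Gclm, Gss, Gsr, Srxn1, Txnrd1, Nqo1 and Osgin1) from the gene column of the deposited tables, and 8 of these 9 genes were found among 42188 rows. All 8 passed the filter on low counts and were tested among 14603 genes. Txnrd1, which encodes cytosolic thioredoxin reductase, is not analysed here. Liver RNA was sequenced from 9 wild-type mice, 3 per group, labelled as male C57BL/6J animals of 8 weeks. MSA_ConA mice were given MSA (250 mg/kg, into the peritoneum) and, 6 h later, concanavalin A (20 mg/kg). MSA was read as mesaconate, the metabolite in the study's title. ConA mice received the same dose of concanavalin A alone by tail vein. Concanavalin A is a lectin from jack bean that drives T cells to attack the liver. Control mice received saline (PBS) by the same vein, and livers were taken 12 h after concanavalin A.

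NRF2, encoded by Nfe2l2, is held in the cytoplasm by KEAP1, which has it marked for degradation. Oxidants and electrophiles modify cysteines of KEAP1, NRF2 then enters the nucleus, and with a small MAF protein it binds antioxidant response elements beside its target genes. In hepatocytes these targets keep glutathione and thioredoxin reduced and clear reactive compounds. Slc7a11 imports cystine, Gclc and Gclm encode the catalytic and modifier subunits of glutamate-cysteine ligase, and Gss completes the synthesis of glutathione. Gsr returns oxidised glutathione to its reduced form, and Srxn1 repairs over-oxidised peroxiredoxins. Nqo1 reduces quinones, and Osgin1 encodes a growth inhibitor induced by oxidative stress. Slc7a11 is also a known target of ATF4, the transcription factor of the integrated stress response.

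The libraries held 13294600 to 17276391 counts. CPM here are counts scaled to a library of 1e6, after TMM scaling (trimmed mean of M values), and 3 counts were worth 0.155 to 0.396 CPM. The labels number the libraries of each group 1, 2 and 3, and the 3 libraries numbered 1 stood apart from the 6 others in transcripts of sex, strain and circadian clock. Xist, the RNA of the inactive X chromosome in female cells, stood at 0.485 CPM or less in number 1, against 667 to 1132 CPM in numbers 2 and 3, although all mice were labelled male. The mitochondrial gene Nnt, part of which C57BL/6J mice lack, stood at 29.8 to 34.7 CPM in number 1, against 168 to 266 CPM in numbers 2 and 3. H2-K1 stood at 2024 to 8655 CPM in number 1, against 100.4 to 165.6 CPM in numbers 2 and 3. For Mup21 the levels were 251.4 to 669.7 CPM, against 0.4164 to 1.444 CPM. Of the clock genes, Arntl stood at 22.1 to 29.6 CPM in number 1, against 1.35 to 3.60 CPM in numbers 2 and 3, and Dbp at 6.02 to 10.3 CPM, against 99.9 to 251 CPM. The part of these differences in the results below was not tested. Libraries are therefore named by their labels, and each result is given with and without number 1. The 8 hepatocyte markers in the tables summed to 100600 to 165500 CPM in each library, the level of a tissue made mostly of hepatocytes. The 12 neutrophil and monocyte markers in the tables, of which 7 were tested, summed to 22.3 to 228 CPM in MSA_ConA, 19.8 to 1723 CPM in ConA and 21.6 to 29.2 CPM in Control. The highest sums were in the libraries labelled MSA_ConA 1 (228 CPM) and ConA 1 (1723 CPM). Most of both sums was Cd14 alone, at 152 CPM in MSA_ConA 1 and 1279 CPM in ConA 1. S100a8 and S100a9 were also highest in ConA 1 (111 and 262 CPM). So were Fcgr3 (27.76 CPM), Retnlg (21.84 CPM), Csf3r (10.1 CPM) and Mpo (0.9708 CPM). Ly6g had 20 counts in ConA 1 and 0 in all 3 MSA_ConA libraries. Itgam had at most 1 count in any library, and Elane at most 3. In contrast, Ccr2 was lower in ConA 1 (0.874 CPM) than in every Control library, and Adgre1 (7.09 CPM) lay within the range of Control. Skeletal muscle markers summed to 4975 CPM in the library labelled MSA_ConA 3 and to at most 399 CPM in the others. The part of these other cell types in the results below was not tested. Nothing in the labels says more than that 3 mice per group were used, so a p-value here speaks of the spread among the libraries alone.

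The promoters of 4 members are printed because their transcripts behaved differently in the libraries below: Srxn1, Osgin1 and Slc7a11 had their highest level in the library labelled ConA 1, and Nqo1 did not. Each window runs from 250 bases before to 50 bases after the start of the gene, 5′ to 3′ on the gene's strand, from RefSeq on GRCm38.p6. The windows lie at chr2:152105274-152105573 (plus strand), chr8:119436897-119437196 (plus), chr3:50443564-50443863 (minus) and chr8:107403156-107403455 (minus). Capitals mark matches to the antioxidant response element core TGACNNNGC, to its form TGAGNNNGC and to the ATF4-type element TGATGCAA, on either strand.
Srxn1: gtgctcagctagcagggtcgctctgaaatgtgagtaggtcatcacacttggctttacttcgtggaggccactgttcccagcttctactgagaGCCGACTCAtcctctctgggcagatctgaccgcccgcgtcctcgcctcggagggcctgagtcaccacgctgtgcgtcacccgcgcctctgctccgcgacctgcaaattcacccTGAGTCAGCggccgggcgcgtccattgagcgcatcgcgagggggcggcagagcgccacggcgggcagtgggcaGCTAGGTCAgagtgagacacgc
Osgin1: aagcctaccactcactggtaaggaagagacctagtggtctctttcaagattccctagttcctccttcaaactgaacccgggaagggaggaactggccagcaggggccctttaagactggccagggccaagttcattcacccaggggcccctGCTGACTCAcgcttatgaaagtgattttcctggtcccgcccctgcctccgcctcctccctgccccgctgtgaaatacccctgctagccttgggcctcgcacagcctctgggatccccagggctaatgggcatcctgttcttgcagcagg
Slc7a11: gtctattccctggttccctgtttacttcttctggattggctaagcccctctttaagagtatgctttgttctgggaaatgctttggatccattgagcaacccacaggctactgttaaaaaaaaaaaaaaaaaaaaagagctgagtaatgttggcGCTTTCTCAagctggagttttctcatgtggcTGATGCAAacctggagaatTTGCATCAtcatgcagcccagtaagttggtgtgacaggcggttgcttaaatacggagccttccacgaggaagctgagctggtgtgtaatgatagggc
Nqo1: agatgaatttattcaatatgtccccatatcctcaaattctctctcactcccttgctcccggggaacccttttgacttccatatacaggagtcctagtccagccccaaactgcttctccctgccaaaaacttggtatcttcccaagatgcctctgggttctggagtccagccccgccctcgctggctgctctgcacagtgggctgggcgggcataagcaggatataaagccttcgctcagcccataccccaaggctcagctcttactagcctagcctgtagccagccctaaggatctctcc
In the Srxn1 window, matches to TGAGNNNGC began 45 and 158 bases before the start, and a match to TGACNNNGC began at base 29 of the gene. The match TGAGTCAGC in Srxn1 is the reverse complement of the match GCTGACTCA in Osgin1, which began 99 bases before its start. It overlaps an AP-1 motif, TGAGTCA. The Slc7a11 window held 2 matches to TGATGCAA, on opposite strands at 66 and 47 bases before the start, and a match to TGAGNNNGC at 97 bases. The Nqo1 window held no match to any of the 3 patterns. Of the windows not printed, that of Gclm held a match to TGACNNNGC, though Gclm was not raised in ConA 1 (108 CPM). That of Gss held no match, though under TMM Gss had its highest level in ConA 1 (101 CPM). By library totals Gss was lower in ConA 1 than in Control 1. Sequence outside the windows was not searched, and a link between matches and levels was not tested. RefSeq promoters were found for 7 of the 9 named genes, with 9 windows in all, Gclc and Gsr having none in the table. TGACNNNGC was in 3 of these 9 windows (those of Gclm and Srxn1 and 1 window of Txnrd1), against 12.4% of 32851 promoters of the same length. TGAGNNNGC, a form added after the windows were seen, was in 3 (Slc7a11, Srxn1 and Osgin1), against 17.6% of promoters. TGATGCAA was in 1, against 0.895% of promoters. A match is a description of the letters and not a bound site.

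The members covered a wide range of levels per gene length. In the authors' FPKM, Control livers had most Osgin1 (112 ± 111 FPKM), then Gclm (83.4 ± 16.5) and Gclc (63.0 ± 10.7; SD, n = 3). Srxn1 (16.1 ± 6.49 FPKM), Gss (14.4 ± 1.19) and Gsr (13.5 ± 2.25) followed, then Nqo1 (6.44 ± 1.78 FPKM). Slc7a11 was barely detected at 0.0334 ± 0.0159 FPKM. The spans of mean ± SD overlapped between neighbours among Osgin1, Gclm and Gclc and among Srxn1, Gss and Gsr, and did not between Gclc and Srxn1, Gsr and Nqo1, or Nqo1 and Slc7a11. In ConA livers the order was Osgin1 (343 ± 544 FPKM), Gclc (145 ± 100.5), Gclm (92.3 ± 13.6), Srxn1 (79.5 ± 116), Gsr (29.3 ± 25.1), Gss (13.8 ± 3.27), Nqo1 (5.30 ± 0.577) and Slc7a11 (0.489 ± 0.771). In MSA_ConA livers it was Gclm (68.5 ± 27.5 FPKM), Gclc (65.7 ± 46.8), Osgin1 (35.9 ± 23), Gsr (14.6 ± 1.83), Gss (12.5 ± 2.10), Srxn1 (12.4 ± 0.556), Nqo1 (4.37 ± 2.59) and Slc7a11 (0.0619 ± 0.0169). The SD of Slc7a11, Srxn1 and Osgin1 in ConA livers exceeded the mean, with 1 library of 3 far above the others.

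Among the genes of glutathione synthesis, Slc7a11 (chr3:50308481-50887298, minus strand, in the C57BL/6NJ assembly that the tables' gene identifiers name) was the scarcest. It measured 1.06, 0.609 and 0.929 CPM in the libraries labelled MSA_ConA 1, 2 and 3, 19.1, 0.206 and 1.02 CPM in those labelled ConA 1, 2 and 3, and 0.373, 0.731 and 0.312 CPM in Control 1, 2 and 3. Outside ConA 1, with 197 counts, these levels rest on 4 to 18 counts. ConA 1 alone was high, ConA 2 was the lowest of all 9 libraries, and the groups overlapped. Gclc (chr9:80296095-80338859, plus strand) measured 42.6, 347 and 293 CPM in MSA_ConA, 884, 253 and 355 CPM in ConA and 187, 209 and 261 CPM in Control. ConA 1 was the highest and MSA_ConA 1 the lowest of all 9 libraries, and the groups overlapped. Gclm (chr3:129005047-129027430, plus strand) measured 49.6, 118 and 86.9 CPM in MSA_ConA, 108, 104 and 132 CPM in ConA and 86.1, 99.1 and 127 CPM in Control. Its lowest library was again MSA_ConA 1, but ConA 1 lay within the range of the other ConA and Control libraries. Gss (chr2:165096401-165129641, minus strand) measured 84.4, 71.4 and 63.6 CPM in MSA_ConA, 101, 81.8 and 62.9 CPM in ConA and 88.3, 90.2 and 77.5 CPM in Control. No library stood far from the rest, and the groups overlapped.

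Of the genes that recycle thiols, Gsr (chr8:33346326-33395621, plus strand) measured 42.9, 42.4 and 35.5 CPM in MSA_ConA, 160 CPM in ConA 1, 42.7 and 40.6 CPM in ConA 2 and 3, and 41.6, 30.5 and 40.7 CPM in Control. All libraries but ConA 1 lay close together. Srxn1 (chr2:161194650-161202250, plus strand) measured 35.2, 35.7 and 34.2 CPM in MSA_ConA, 602, 36.2 and 34.5 CPM in ConA and 66.8, 33.0 and 38.3 CPM in Control. ConA 1 stood far above, Control 1 was the next highest, and the other 7 libraries were nearly level, MSA_ConA 1 among them. Nqo1 (chr8:113828429-113843415, minus strand) measured 2.38, 10.3 and 7.89 CPM in MSA_ConA, 8.83, 8.98 and 7.22 CPM in ConA and 13.2, 7.94 and 9.27 CPM in Control. Its outlying library was MSA_ConA 1, the lowest, and ConA 1 was not raised. Osgin1 (chr8:126863049-126875188, plus strand) measured 167, 77.5 and 50.2 CPM in MSA_ConA, 2664, 92.1 and 71.6 CPM in ConA and 664, 125 and 146 CPM in Control. In each group number 1 was its highest library, and in numbers 2 and 3 both Control libraries lay above all ConA and MSA_ConA ones. The share of all genes with this order in numbers 2 and 3 was not counted, so the order alone does not set Osgin1 apart. Summed over the 8 genes, ConA 1 held 4547 CPM, MSA_ConA 1 held 425 CPM and the other 7 libraries held 572 to 1147 CPM.

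**Figure D1:**
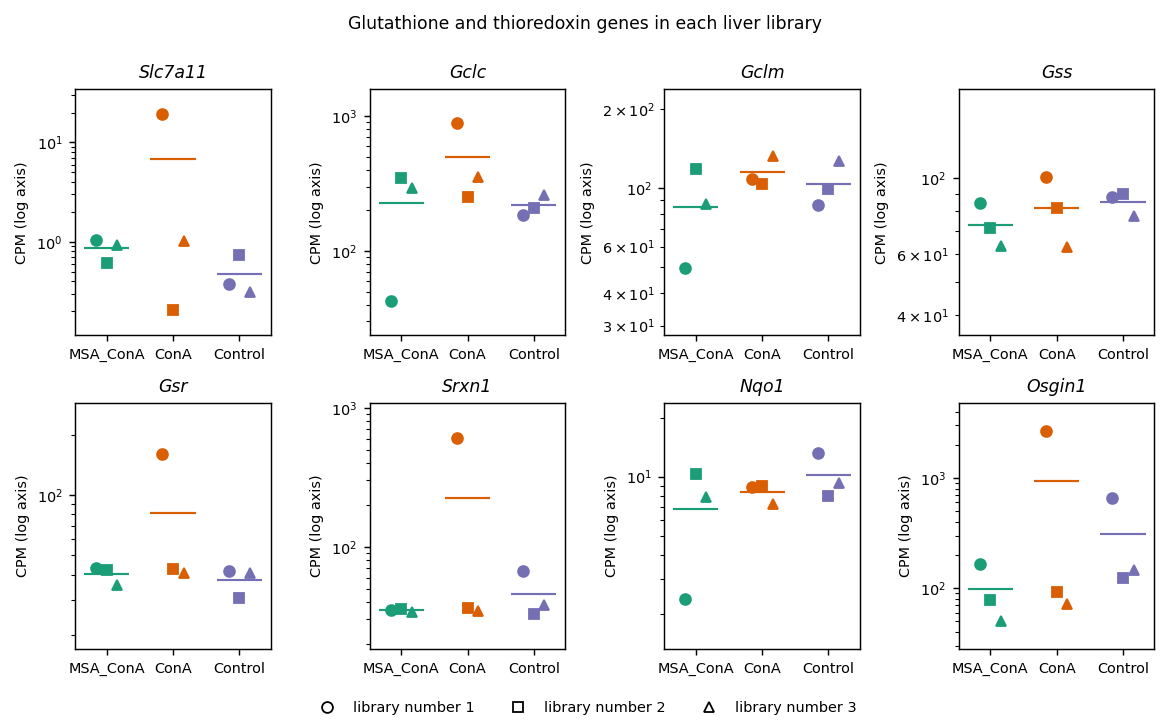
Levels of the 8 genes in TMM-scaled CPM (log axis, a separate scale for each gene) in MSA_ConA, ConA and Control livers, 3 libraries each, with the marker giving the library number and the bar the group mean. The library labelled ConA 1 lies above all others for Slc7a11, Gclc, Gss, Gsr, Srxn1 and Osgin1, and MSA_ConA 1 is the lowest for Gclc, Gclm and Nqo1.

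The comparison of ConA with Control asks what concanavalin A did to these genes. Slc7a11, Srxn1, Gclc, Osgin1 and Gsr had high levels in ConA 1 (so labelled) and not in ConA 2 and 3, while Gclm and Nqo1 were not raised in any of them. Between the libraries numbered 1, Slc7a11 was 51.3-fold higher in ConA than in Control (exact 95% interval 21.6 to 160, on 5 counts in Control 1) and Srxn1 9.0-fold (8.39 to 9.67). Gclc was 4.74-fold higher (4.54 to 4.96), Osgin1 4.01-fold (3.92 to 4.11) and Gsr 3.85-fold (3.49 to 4.24). These intervals cover counting error only, since each side is 1 library. Thus 4 of 8 genes were at least 4-fold higher with at least 10 CPM, where 6.5% of all genes tested were, and 2 of 8, where 3.99% of all genes were, when libraries were scaled by their totals (Gclc then 3.36-fold and Osgin1 2.84-fold). Gclm and Gss had ratios of 1.26 (1.16 to 1.37) and 1.14 (1.05 to 1.24), which turned to 0.892 and 0.808 under library totals. Nqo1 had a ratio of 0.669 (0.514 to 0.867).

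Between ConA and Control over all 9 libraries, no member passed edgeR's quasi-likelihood test, and 0 of 14603 genes did (0% at a Benjamini-Hochberg adjusted p under 0.05, 3.86% at an unadjusted one). DESeq2 called 2 genes and none of the members, and limma on log2(FPKM + 1) called 0. The largest changes were Slc7a11 with a log2 fold change of 3.81 (SE 1.41), the 1 member with an unadjusted p under 0.05 by edgeR, and Srxn1 with 2.28 (SE 1.02). The members' median log2 fold change was 1.15, beside 0.07 over all genes tested, with 6 higher and 2 lower. Without ConA 1 these changes were 0.36 for Slc7a11, -0.38 for Srxn1, 0.47 for Gclc, 0.15 for Gsr and -1.93 for Osgin1, which had been 1.60 with it. All 8 genes overlapped between ConA and Control, where 5.66% of all genes were higher in ConA without overlap and 6.64% lower. In bulk liver, more cells of a type and more RNA per cell cannot be told apart.

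Whether the response differed by library number was tested in 1 model with a mean for each group in number 1 and in numbers 2 and 3. The effect of ConA was larger in number 1 for 5 of the 8 genes, where 15.7% of all genes passed in that direction, 15.4% in the other and 31.1% in either (edgeR, Benjamini-Hochberg). The difference between the log2 effects was 3.18 for Srxn1 (SE 0.255, adjusted p = 0.000416), 2.73 for Osgin1 (SE 0.423, adjusted p = 0.00416) and 1.72 for Gsr (SE 0.311, adjusted p = 0.00728). It was 1.87 for Gclc (SE 0.373, adjusted p = 0.0102) and 5.44 for Slc7a11 (SE 1.30, adjusted p = 0.0189 by edgeR, or 0.0738 without the library labelled Control 2). Gclm (0.27), Gss (0.40) and Nqo1 (-0.49) did not pass, with adjusted p of 0.614, 0.349 and 0.393. The members' median difference was 1.8, beside -0.09 over all genes tested. With 3 residual degrees of freedom, this model takes the spread of numbers 2 and 3 for the single library numbered 1 in each group. Scaling by library totals moved the median of all genes in these differences by -0.54 (ConA against Control), -0.28 (MSA_ConA against ConA) and -0.82 (MSA_ConA against Control) on the log2 scale. For ConA against Control it left 5 members called, with 9.07% of all genes called higher and 28.4% lower. In the same test under TMM 4 of 7 neutrophil and monocyte markers were called higher and none lower.

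**Figure D2:**
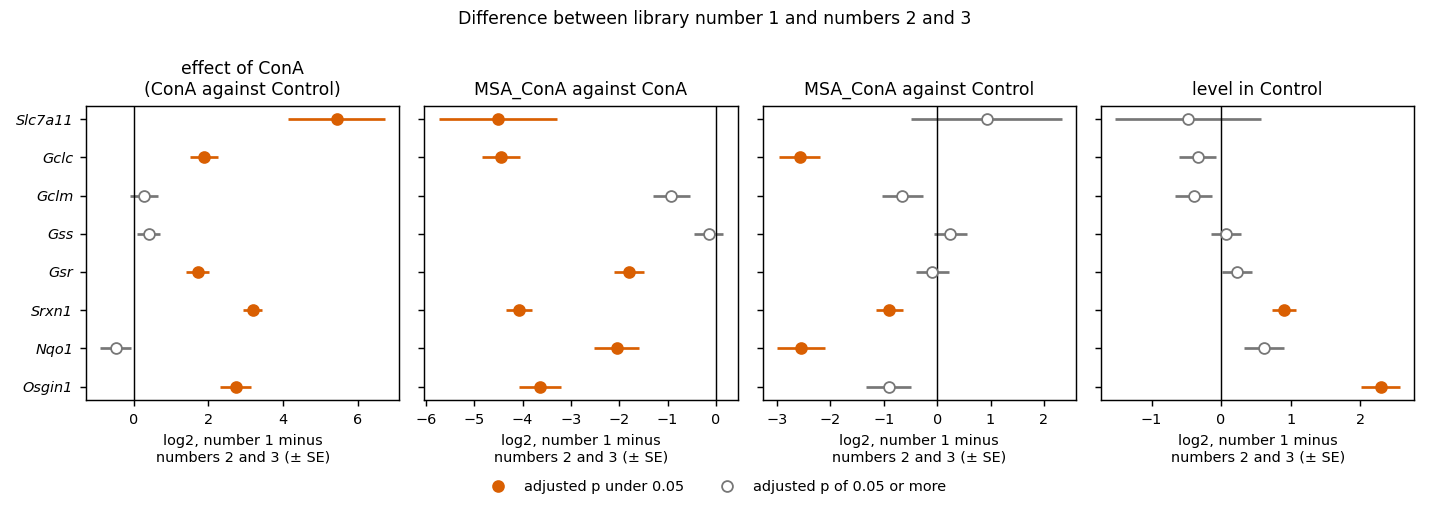
Difference between library number 1 and numbers 2 and 3 in each log2 effect (or, at the right, in the log2 level in Control), with bars of ± 1 SE and filled points at an adjusted p under 0.05 by edgeR. For the effect of ConA 5 genes lie right of 0 and are filled, for MSA_ConA against ConA 6 lie left of 0 and are filled, and Gclm and Gss are open in every panel under TMM.

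In the libraries numbered 2 and 3 alone, ConA and Control livers differed little in these genes. Srxn1 changed by -0.03 (SE 0.137), Gclm by 0.05 (SE 0.217), Gclc by 0.36 (SE 0.214) and Gsr by 0.21 (SE 0.175) on the log2 scale. Osgin1 was lower, with a log2 fold change of -0.74 (SE 0.230, adjusted p = 0.414 by edgeR). It had an unadjusted p under 0.05, as 11.6% of the 14851 genes tested did, and no member and 0 of 14851 genes (0%) passed after adjustment. DESeq2 called 71 genes in these 6 libraries and none of the members.

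The comparison of MSA_ConA with ConA asks what MSA given beforehand changed. All 8 genes were lower in the library labelled MSA_ConA 1 than in the one labelled ConA 1. Gclc was 20.8-fold lower (exact 95% interval 18.6 to 23.3), Slc7a11 18.1-fold (9.02 to 42.6), Srxn1 17.1-fold (15.1 to 19.4) and Osgin1 16-fold (15.1 to 16.9). These 4 of 8 genes were at least 4-fold lower, where 4.29% of all genes tested were. Gsr was 3.73-fold lower (3.31 to 4.22), Nqo1 3.72-fold (2.23 to 6.56), Gclm 2.18-fold (1.94 to 2.46) and Gss 1.19-fold (1.08 to 1.32). The ratios of the subunits of glutamate-cysteine ligase lay far apart in this pair of libraries, their intervals not overlapping. Srxn1, Gsr and Slc7a11 in MSA_ConA 1 stood at 35.2, 42.9 and 1.06 CPM, inside or next to the range of the libraries numbered 2 and 3, whereas Gclc, Gclm and Nqo1 stood below every other library.

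**Figure D3:**
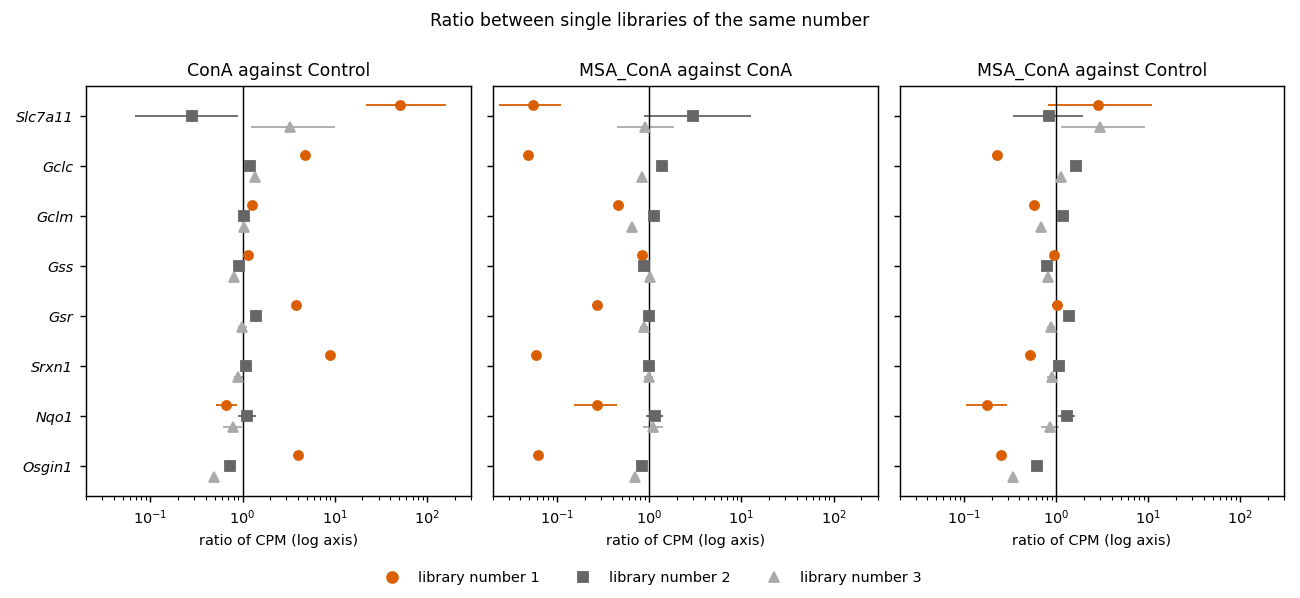
Ratio of CPM (log axis) between single libraries of the same number for each gene, with exact 95% intervals that cover counting error only, for ConA against Control, MSA_ConA against ConA and MSA_ConA against Control. Points of number 1 lie farthest from 1 for most genes. In numbers 2 and 3, leaving out Slc7a11, which rests on few counts, the ratios lie between 0.344 (Osgin1) and 1.66 (Gclc, both for MSA_ConA against Control), and those of Osgin1 all lie below 1.

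Over all 9 libraries the 8 genes were all lower in MSA_ConA than in ConA, with a median log2 fold change of -1.07 beside 0.02 over all genes tested. No member passed edgeR's test, and 0 of 14603 genes did (0%, with 1.7% at an unadjusted p under 0.05), as with DESeq2 and with limma on log2(FPKM + 1). Srxn1 had a log2 fold change of -2.68 (SE 1.04) and Osgin1 one of -3.27 (SE 1.42), both with an unadjusted p under 0.05 and an adjusted p = 0.9999 by edgeR. Without ConA 1 they were -0.02 for Srxn1 and 0.25 for Osgin1, with 0.47 for Slc7a11, -0.42 for Gclc and -0.06 for Gsr. All 8 genes overlapped between MSA_ConA and ConA, where 2.34% of all genes were higher in MSA_ConA without overlap and 2.54% lower.

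The difference between MSA_ConA and ConA itself differed by library number for 6 of the 8 genes, all lower in number 1, where 10.1% of all genes passed in that direction, 8.59% in the other and 18.7% in either. Gclc had a difference of -4.45 on the log2 scale (SE 0.396, adjusted p = 0.000952 by edgeR) and Srxn1 one of -4.08 (SE 0.263, adjusted p = 0.000348). Osgin1 had -3.64 (SE 0.433, adjusted p = 0.00280), Gsr -1.8 (SE 0.314, adjusted p = 0.0105) and Nqo1 -2.06 (SE 0.458, adjusted p = 0.0233). Slc7a11 had -4.51 (SE 1.23, adjusted p = 0.0431). Gclm (-0.92, adjusted p = 0.132) and Gss (-0.15, adjusted p = 0.767) did not pass. Under library totals Gclm passed too (-1.20, adjusted p = 0.0443 by edgeR), where 14% of all genes were called lower and 5.22% higher. The members' median was -2.85, beside -0.01 over all genes tested. Slc7a11 lost the call without Control 2, Control 3, ConA 2 or MSA_ConA 3 (adjusted p of 0.0655, 0.0697, 0.0537 and 0.0631 by edgeR), and Nqo1 without ConA 3 (0.0656).

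In the libraries numbered 2 and 3 alone, the 8 genes divided evenly between MSA_ConA and ConA, 4 higher and 4 lower, with a median log2 fold change of -0.04. The log2 fold changes ran from -0.34 for Osgin1 (SE 0.230) to 0.35 for Slc7a11 (SE 0.806), and Srxn1 had 0.00 (SE 0.137). By edgeR no member and 0 of 14851 genes (0%) passed, 5.16% having an unadjusted p under 0.05, and DESeq2 called 9 genes and none of the members.

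MSA_ConA and Control share their libraries with the comparisons above. Gclc and Nqo1 were lower in the library labelled MSA_ConA 1 than in Control 1, by 4.38-fold (exact 95% interval 3.9 to 4.93) and 5.56-fold (3.42 to 9.60). They were the 2 of 8 genes at least 4-fold lower, where 3.86% of all genes were, or 3 of 8, with Osgin1 6.64-fold lower, where 7.88% were under library totals. Osgin1 was 3.99-fold lower (3.76 to 4.23), Srxn1 1.90-fold (1.65 to 2.18) and Gclm 1.74-fold (1.54 to 1.95). Gss (1.05-fold lower, 0.949 to 1.15) and Gsr (ratio 1.03, 0.896 to 1.18, or 0.619 under library totals) had intervals that include 1 under TMM. Slc7a11 had a ratio of 2.83 (0.817 to 11) on 8 and 5 counts. Over all 9 libraries no member and 0 of 14603 genes (0%) passed edgeR's test, 5% of genes having an unadjusted p under 0.05 and no member among them. DESeq2 called 55 genes and none of the members, limma on log2(FPKM + 1) called 0 genes, and the members' median log2 fold change was -0.26 beside 0.07 over all genes. Gene by gene it ran from -1.67 for Osgin1 (SE 1.33) to 0.84 for Slc7a11 (SE 1.33). All 8 genes overlapped, where 6.44% of all genes were higher in MSA_ConA without overlap and 7.34% lower.

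The difference between MSA_ConA and Control was lower in number 1 than in numbers 2 and 3 for 3 of the 8 genes, where 16.6% of all genes passed in that direction, 16% in the other and 32.6% in either. Nqo1 had -2.55 (SE 0.453, adjusted p = 0.00634 by edgeR), Gclc -2.57 (SE 0.383, adjusted p = 0.00341) and Srxn1 -0.90 (SE 0.253, adjusted p = 0.0326). The count was 6 when libraries were scaled by their totals, where 35.8% of all genes were called lower and 6.55% higher. Srxn1 lost the call without Control 2, ConA 2, ConA 3, MSA_ConA 2 or MSA_ConA 3 (adjusted p of 0.0562 to 0.0707 by edgeR). In numbers 2 and 3 alone, Osgin1 had a log2 fold change of -1.08 (SE 0.231). Its adjusted p was 0.0823 by edgeR, where 0 of 14851 genes (0%) passed and 24.1% had an unadjusted p under 0.05. It was called by DESeq2, as 1282 genes were (adjusted p = 0.000502), without the expression filter in edgeR (adjusted p = 0.000555) and in edgeR without MSA_ConA 2 (-1.43, adjusted p = 0.0251). Skeletal muscle markers differed between the same libraries, at 373 and 4975 CPM in MSA_ConA 2 and 3 and 2.46 and 0.885 CPM in Control 2 and 3.

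The library labelled Control 1 differed from Control 2 and 3 in 2 of the 8 genes, both higher in Control 1, where 12.1% of all genes passed in that direction and 27.8% in either. Counted in either direction, the members are thus near the share of all genes. Osgin1 measured 664 CPM in Control 1 and 125 and 146 CPM in Control 2 and 3, a log2 difference of 2.29 (SE 0.281, adjusted p = 0.00308 by edgeR). Srxn1 measured 66.8 CPM and 33.0 and 38.3 CPM, a log2 difference of 0.91 (SE 0.172, adjusted p = 0.0103). As number 1 is a single library, these p-values take its spread from the libraries numbered 2 and 3. The other 6 genes did not pass, with log2 differences of -0.48 (Slc7a11) to 0.62 (Nqo1).

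The regulators of the pathway were followed in the same libraries. Nfe2l2, the gene of NRF2 itself, measured 94.3, 91.0 and 82.9 CPM in MSA_ConA, 145, 85.6 and 81.6 CPM in ConA and 95.2, 82.9 and 85.2 CPM in Control. Under TMM its transcript was highest in ConA 1 and lay between 81.6 and 95.2 CPM in all other libraries. By library totals ConA 1 was not the highest, with 1493 of 15331294 counts, against 1642 of 15398186 in MSA_ConA 2. Keap1 measured 37.5, 39.0 and 34 CPM in MSA_ConA, 87.7, 46.0 and 40.9 CPM in ConA and 55.0, 46.4 and 52.3 CPM in Control. Every MSA_ConA library was below every ConA and Control library for Keap1 (at most 39.0 CPM, against at least 40.9 CPM), without passing the test over all 9. Of all genes tested, 2.54% were lower in MSA_ConA than in ConA without overlap, and 7.34% were lower than in Control. The share for both at once was not counted. Bach1, a repressor that competes for the same elements, measured 10.7, 11.9 and 7.22 CPM in MSA_ConA, 58.0, 11.8 and 13.6 CPM in ConA and 4.47, 6.48 and 12 CPM in Control. Maff, a small MAF partner, measured 83.1, 3.32 and 3.41 CPM in MSA_ConA, 276, 5.73 and 4.32 CPM in ConA and 1.86, 3.13 and 6.87 CPM in Control. In MSA_ConA 1 Maff stood below ConA 1 and above all Control libraries. Sqstm1, an autophagy adaptor that binds KEAP1, measured 704, 265 and 240 CPM in MSA_ConA, 3215, 262 and 257 CPM in ConA and 516, 267 and 319 CPM in Control.

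Of the 11 pathway regulators, 6 were called with a larger effect of ConA in number 1 and none with a smaller one, where 15.7% and 15.4% of all genes were. The list's median difference was 0.86, with 10 values above 0 and 1 below. The 6 include Maff (log2 difference 7.19, SE 0.641, adjusted p = 0.000617 by edgeR), Bach1 (3.23, SE 0.604, adjusted p = 0.00804), Sqstm1 (2.82, SE 0.287, adjusted p = 0.000964) and Keap1 (0.86, SE 0.257, adjusted p = 0.0410). Nfe2l2 (0.61, SE 0.234, adjusted p = 0.0840) and Mafg (0.41, adjusted p = 0.425) did not pass. Of 28 other NRF2 targets tested, 3 were called higher and 5 lower in that difference, shares near the 15.7% and 15.4% of all genes, with a median of -0.11 beside -0.09 over all genes. Hmox1, which degrades haem, led with 152, 17 and 18.8 CPM in MSA_ConA, 3526, 14.5 and 13.1 CPM in ConA and 19.0, 17.6 and 17.7 CPM in Control (log2 difference 7.89, SE 0.304, adjusted p = 0.000138 by edgeR). Gstm1, a glutathione transferase, measured 806 CPM in MSA_ConA 1, 759 CPM in ConA 1 and 960 CPM in Control 1, and its effect of ConA did not pass the test of a difference by number (-0.18, SE 0.315, adjusted p = 0.698 by edgeR). For the effect of ConA by number, Ugdh (0.43), G6pdx (-0.19), Akr1b8 (-0.09) and Abcc4 (0.60) did not pass, and Cbr3 had 3.09 (SE 1.19, adjusted p = 0.0872) at no more than 6.21 CPM. Ugdh, which makes the substrate for glucuronidation, did pass in the difference between MSA_ConA and ConA (-1.81, SE 0.436, adjusted p = 0.0299 by edgeR). In that difference 4 of the 28 targets and 3 of the 11 regulators were called lower in number 1 and none higher, where 10.1% and 8.59% of all genes were, with medians of -0.33 for the targets and -0.90 for the regulators.

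**Figure D4:**
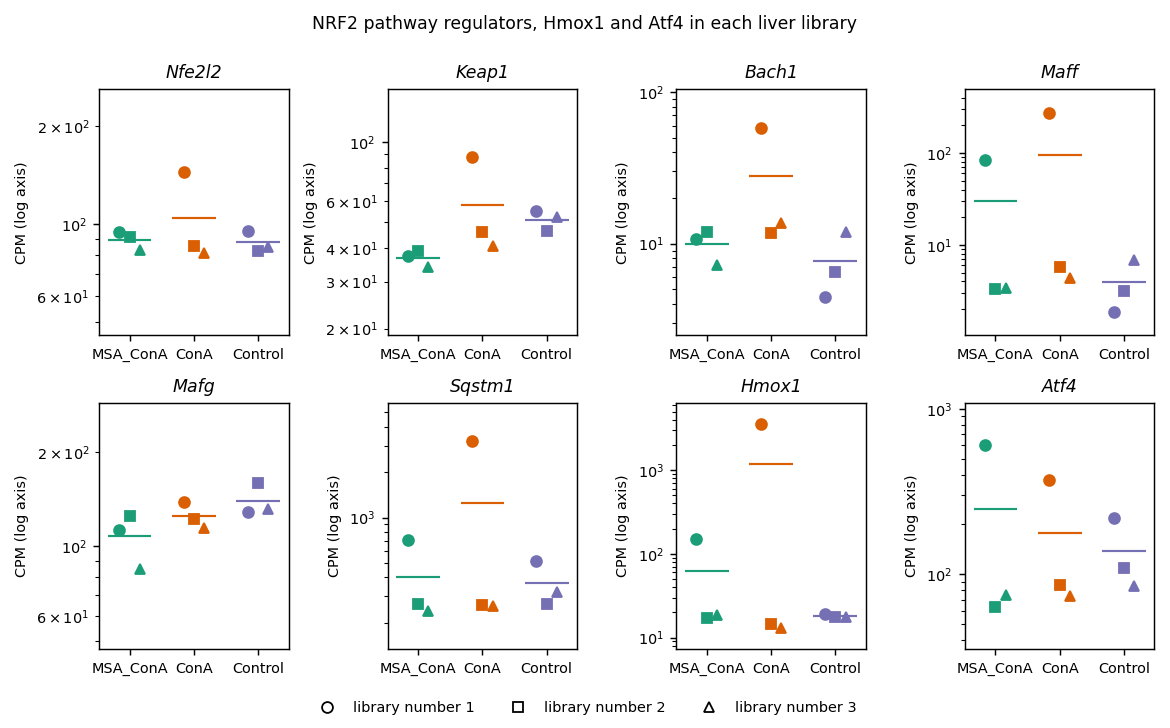
Levels of Nfe2l2, Keap1, Bach1, Maff, Mafg, Sqstm1, Hmox1 and Atf4 in TMM-scaled CPM (log axis, a separate scale for each gene) in each library, marked by its number, with bars for group means. Maff, Sqstm1 and Hmox1 are highest in ConA 1 with MSA_ConA 1 next, Atf4 is highest in MSA_ConA 1, and Nfe2l2 stays between 81.6 and 145 CPM.

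Genes that use glutathione or run the thioredoxin system were called in both directions. Of 17 tested genes of glutathione use and turnover, 5 were called higher and 4 lower in the difference of the ConA effect by number, and of 17 thioredoxin genes 3 higher and 1 lower. The lists overlap, since Chac1 of the glutathione list and Sesn2 of the thioredoxin list are also in the ATF4 list below. Over all genes 15.7% were called higher and 15.4% lower, so that the thioredoxin count is near the background. Glrx, a glutaredoxin, measured 122, 42.8 and 35.4 CPM in MSA_ConA, 79.9, 42.4 and 41.3 CPM in ConA and 37.7, 45.9 and 48.9 CPM in Control (log2 difference of the ConA effect 1.26, SE 0.255, adjusted p = 0.0107 by edgeR). Txnip, an inhibitor of thioredoxin, measured 204, 57.4 and 131 CPM in MSA_ConA, 356, 106 and 61.9 CPM in ConA and 46.2, 57.8 and 59.2 CPM in Control (2.43, SE 0.686, adjusted p = 0.0336). Txn1, the cytosolic thioredoxin, was instead higher in number 1 of every group, at 302 CPM in MSA_ConA 1, 460 CPM in ConA 1 and 387 CPM in Control 1 against 89.7 to 164 CPM elsewhere. Gpx1 (0.70), Gpx4 (0.39), Prdx1 (-0.12) and Txnrd2 (-0.12) did not pass for the ConA effect by number, with adjusted p of 0.219, 0.434, 0.801 and 0.764.

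Genes of ATF4 and cysteine supply, the second route to Slc7a11, were called with a larger effect of ConA in number 1 in 10 of 14 cases and with a smaller one in none, where 15.7% and 15.4% of all genes were; the list's median difference was 2.15, with 11 values above 0 and 3 below. Atf4 measured 603, 63.2 and 74.3 CPM in MSA_ConA, 373, 85.3 and 73.8 CPM in ConA and 219, 109 and 84.6 CPM in Control (log2 difference of the ConA effect 1.05, SE 0.315, adjusted p = 0.0409 by edgeR). In contrast with the 8 members, Atf4 was higher in MSA_ConA 1 than in ConA 1. Slc3a2, whose product pairs with that of Slc7a11 in the cystine importer, measured 99.7, 36.7 and 35.7 CPM in MSA_ConA, 210, 47.2 and 44.5 CPM in ConA and 47.9, 48.9 and 54.5 CPM in Control (2.30, SE 0.239, adjusted p = 0.00102). Chac1, which degrades glutathione and is a target of ATF4, measured 75.7 CPM in MSA_ConA 1, 40.6 CPM in ConA 1 and 1.86 CPM in Control 1, and at most 1.36 CPM in numbers 2 and 3. Ddit3 (1.66, adjusted p = 0.0213) and Sesn2 (2.00, adjusted p = 0.00513) also had larger ConA effects in number 1 by edgeR, while Cth (-0.92, adjusted p = 0.0504), Cbs (-0.33, adjusted p = 0.456) and Asns (-0.21, adjusted p = 0.924) did not pass. For MSA_ConA against Control, 8 of the 14 were called higher in number 1 than in the other numbers and none lower, where 16% and 16.6% of all genes were. Of the 8 members 0 were called higher and 3 lower in it, and the contrast between the lists was not tested.

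The 8 genes did not share 1 profile. Taking each gene's log2 CPM minus its Control mean, the members' median profile was 2.06 in ConA 1, -0.39 in MSA_ConA 1 and between -0.28 and 0.12 in the other 7 libraries. Gsr lay closest to it (root-mean-square difference 0.263 log2 over the 9 libraries), then Srxn1 (0.624), Gss (0.649), Gclm (0.742) and Gclc (0.795), with Nqo1 (0.931), Slc7a11 (1.29) and Osgin1 (1.31) farthest. Outside the members, the 5 named genes with the most similar profile over the 9 libraries were Lcp1 (0.157), Pkp2 (0.177), Myo9b (0.178), Tapbpl (0.185) and Psmd10 (0.188). The measure gives a likeness of levels in these libraries, which ConA 1 dominates.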

How the data were processed

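Liver RNA of 9 mice was sequenced. Per the labels' protocols, RNA was extracted with Trizol and libraries were built with an Illumina kit. How strand was treated and which tool counted reads is not given in the sources used here, so reads of a gene and of an overlapping or antisense gene cannot be told apart. The submitters' processing notes list Bowtie 0.12.2 and, without saying what each was for, mm8 and mm10 as builds. The authors deposited 2 tables, unnormalised counts by gene and FPKM. A deposited FPKM value is the gene's count over its length and over an effective size that is the same for all genes of a library. The gene identifiers name the C57BL/6NJ assembly, whose coordinates are given. The columns M were taken as MSA_ConA.

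The genes and lists were chosen with earlier results of these data known. Libraries were grouped by title, 3 per group. The main test was the quasi-likelihood test of edgeR 4.0.16 in R 4.3.3, on deposited counts scaled by TMM (factors 0.571 to 1.26), with the default expression filter by group, and a Benjamini-Hochberg adjusted p under 0.05 over all genes tested. It was fitted on all 9 libraries (6 residual degrees of freedom), on the 6 libraries numbered 2 and 3 (3 residual degrees of freedom), and with a mean per group and number class. Ratios of single libraries carry exact 95% conditional binomial intervals. Standard errors are the log2 fold change over the root of the F statistic. DESeq2 1.42.0, limma 3.58.1 on log2(FPKM + 1), relative log expression, library totals, other expression filters, only the groups compared, a block for library number, a 2-fold bound and leaving out each library were the alternatives. Same-numbered libraries deviated together from their group means across genes, with correlations of 0.479 to 0.713 (number 1), 0.349 to 0.553 (number 2) and 0.303 to 0.472 (number 3), all over the bound of 0.1 set for treating numbers as pairs. Libraries numbered 2 correlated as much with those numbered 3 of another group (0.313 to 0.681), so that the check shows number 1 apart and does not separate numbers 2 and 3; the labels give no reason for a pairing. Within each group, every pair of libraries differed by more than counting noise (chi-square per degree of freedom at least 19.3).

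Named were all 9 genes, set genes of the regulator, target, glutathione, thioredoxin and ATF4 lists, and the 5 genes with the most similar profile. Scripts were tested on simulated counts: for ConA against Control over 14414 genes, the shares of 2-, 4-, 8- and 16-fold changes recovered were 0%, 2%, 34% and 70%, and for its difference by number over 14440 genes 8%, 60%, 82% and 96%. Unchanged genes called numbered 6 and 11. Apart from the added changes, each simulated gene had 1 mean and 1 dispersion in all libraries. The simulation therefore cannot check whether number 1 varies like numbers 2 and 3.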

Additional observations from a re-analysis of the deposited data

Results flagged for a closer look

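For 14 results the test of the difference itself found that an effect differed between the libraries numbered 1 and those numbered 2 and 3 (edgeR, Benjamini-Hochberg adjusted p under 0.05). Of all genes tested, 31.1% passed for ConA against Control, 18.7% for MSA_ConA against ConA and 32.6% for MSA_ConA against Control. The last share is near that of the members. The 3 comparisons share their libraries, and calls of Slc7a11, Nqo1 and Srxn1 were lost when some single libraries were left out. For ConA against Control the log2 effect was larger in number 1 by 1.87 for Gclc, 1.72 for Gsr, 5.44 for Slc7a11, 3.18 for Srxn1 and 2.73 for Osgin1. For MSA_ConA against ConA the difference was -4.45 for Gclc, -1.8 for Gsr, -4.51 for Slc7a11, -4.08 for Srxn1, -2.06 for Nqo1 and -3.64 for Osgin1. For MSA_ConA against Control it was -2.57 for Gclc, -0.90 for Srxn1 and -2.55 for Nqo1. Each group has 1 library numbered 1, and library number and the differences in sex, strain and clock transcripts that go with it cannot be told apart here.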

How the results depend on the processing

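Under the replicate block (library number), 0 members and 0 genes were called in each comparison over all 9 libraries and in numbers 2 and 3, as by edgeR without it. The block was not fitted to the differences by number, so it says nothing about the calls there. Other tools and filters moved the counts of genes. Over all 9 libraries DESeq2 called 2 for ConA against Control and 55 for MSA_ConA against Control, where edgeR called 0. In numbers 2 and 3, DESeq2 called 71, 9 and 1282 genes and edgeR without a filter 308, 290 and 1396 for ConA against Control, MSA_ConA against ConA and MSA_ConA against Control. Each of these called 1 member in the last, Osgin1. Library totals in place of TMM took the share of calls that were higher in the differences by number to 24.2%, 27.1% and 15.5% (TMM 50.4%, 46.1% and 49.1%) in the same order, and in Control to 22.2% (TMM 43.7%). They gave 6 members in the MSA_ConA against Control difference by number, and 2 members at least 4-fold higher between ConA 1 and Control 1. At 2-fold, 3738, 2777 and 3505 genes passed between the libraries numbered 1. For MSA_ConA against Control, Gsr turned to -0.019 under library totals and Gclc to -0.37 with limma on FPKM. The cause was not tested.

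Leaving out 1 library at a time, the genes called in numbers 2 and 3 ran from 0 to 19, 0 to 161 and 0 to 507 in the order above, with 0 to 1 members in MSA_ConA against Control (the 1 without MSA_ConA 2). Genes differing by number ran from 1368 (without ConA 3) to 2649 for MSA_ConA against ConA and, in Control, from 1340 (without Control 3) to 4238. For ConA against Control, log2 changes over all 9 libraries ran from -0.24 to 0.082 for Gss, -0.38 to 2.77 for Srxn1 and -1.93 to 2.78 for Osgin1, the lowest without ConA 1. For MSA_ConA against ConA they ran from -0.32 to 0.0093 for Gss, -3.53 to 0.47 for Slc7a11, -3.88 to 0.25 for Osgin1 (the highest without ConA 1) and -0.69 to 0.13 for Nqo1 (the highest without MSA_ConA 1). For MSA_ConA against Control they ran from -0.39 (without MSA_ConA 2) to 0.54 for Gclc and from -0.044 (without Control 2) to 0.17 for Gsr. Of 22 such changes of a member, 11 reversed the sign of a value that was not called and 11 ended a call of a difference by number.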
